A study of Homo sapiens with 46 samples.

Results

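NGLY1, SGO1, NUF2, CENPE, FOXO3, RC3H2, MTM1, AUH, SLC36A1 and SRRM1 are 10 human genes that moved with an siRNA against TRA2B in both MDA-MB-231 and U87MG cells, in their mRNA level or in the inclusion of an exon. They were chosen by those siRNA values, so the siRNA values below are a description and carry no test. The tests here are on the same lines and on a tumor model that received the antisense oligonucleotide ASO-1570, whose values the rule for the genes does not use. The 10 genes are 10 of 60668 gene identifiers in the count tables. Their splicing events numbered 272 of 218608 in the siRNA experiment, 243 of 179118 at 200 nM ASO, 178 at 50 nM and 112 in the tumor model.

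The series holds 46 RNA-seq libraries in 14 groups. MDA-MB-231 is an established line from a breast carcinoma and U87MG one from a glioblastoma; the labels give the genotype as NA or leave it out. In each line, 3 libraries of cells transfected with the TRA2B siRNA at 10 nM stand against 3 with a control siRNA (siRNA-CTL) at 10 nM. Likewise, 3 libraries with ASO-1570 stand against 3 with a control oligonucleotide (ASO-CTL), at 200 nM and again at 50 nM, each harvested 48 hours after transfection. The tumor model is a breast carcinoma grown from patient tissue in mice (PDX, patient-derived xenograft), injected into the tumor at 50 mg/kg 3 times a week for 4 weeks with ASO-1570 (5 libraries) or ASO-CTL (5 libraries). All 10 PDX libraries come from 1 tumor model, the host mice are labelled immunocompetent, and no mouse age is given. The labels do not say that the libraries of a group came from separate cultures, so p-values measure the spread between these libraries only.

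TRA2B is an SR-like splicing factor that binds purine-rich stretches of exons, typically around the core AGAA, and favours their inclusion; TRA2A is its close paralog. Among the 10 genes, NUF2, CENPE and SGO1 act at the kinetochore and on sister chromatid cohesion in mitosis. NGLY1 removes N-linked sugars from misfolded glycoproteins that leave the endoplasmic reticulum, FOXO3 is a forkhead transcription factor held in check by insulin signalling, and RC3H2 (Roquin-2) is an RNA-binding ubiquitin ligase that promotes decay of its target mRNAs. MTM1 (myotubularin) is a phosphatase of the lipid PI3P, SLC36A1 exports amino acids from lysosomes together with protons, AUH is a mitochondrial enzyme of leucine breakdown, and SRRM1 is an SR-related coactivator of splicing.

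Total counts per library, in units of 1e6, ranged from 259.9 to 356.8 at 200 nM, 78.6 to 112.8 at 50 nM, 75.0 to 111.1 in the siRNA experiment and 75.3 to 109.6 in the PDX. KRT8, a keratin of simple epithelia, lay at 479 CPM or more in every MDA-MB-231 library and at most at 7.32 CPM in U87MG (CPM, counts scaled to a library of 1e6). It is the only gene shown here from a longer list of breast and epithelial markers. Of 5 glial markers, OLIG2 lay at 1.63 to 3.19 CPM in U87MG and at most at 0.0118 in MDA-MB-231, and S100B at most at 0.173 and 0.0338. GFAP reached 2.33 CPM in U87MG and 3.72 in MDA-MB-231, SOX2 0.105 and 0.14, and NES 43.5 and 41.1, so these 3 do not mark U87MG. Of the 18 MDA-MB-231 libraries, 12 (the siRNA and 50 nM ones) are labelled as glioblastoma in their cell type field, and they have the keratin. Mitochondrial genes held 1.73 to 3.16% of counts in the lines and 17.65 to 75.31% in the PDX, where 3 treated libraries and 1 control library were above 50%. These are bulk libraries, in which fewer cells of a type and less RNA per cell cannot be told apart. TRA2B mRNA fell 8.66-fold and 7.11-fold with the siRNA in MDA-MB-231 and U87MG, and 1.7-fold to 2.18-fold in the 4 cell line ASO comparisons. TRA2A mRNA rose 2.07-fold and 2.92-fold with the siRNA in MDA-MB-231 and U87MG, and 1.56-fold to 2.74-fold in the same ASO comparisons.

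Exons that the siRNA results turn on are shown first, since TRA2B binds within exons. A second NGLY1 exon, of 146 bases, is described below but not printed. Each sequence is the exon's own strand, 5′ to 3′, cut from GENCODE v29 transcripts (GRCh38), and capitals mark every AGAA. All lie inside the coding sequence of annotated protein-coding transcripts.
NUF2 141-base exon, chr1:163345678-163345818, plus strand: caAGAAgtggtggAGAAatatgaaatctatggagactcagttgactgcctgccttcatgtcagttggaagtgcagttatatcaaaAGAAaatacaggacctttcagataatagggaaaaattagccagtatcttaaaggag
CENPE 75-base exon, chr4:103163479-103163553, minus strand: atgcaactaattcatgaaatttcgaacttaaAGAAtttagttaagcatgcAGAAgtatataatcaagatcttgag
NGLY1 122-base exon, chr3:25737334-25737455, minus strand: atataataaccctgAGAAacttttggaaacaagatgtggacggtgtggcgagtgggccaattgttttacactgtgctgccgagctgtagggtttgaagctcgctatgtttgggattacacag
SGO1 stretch of 150 bases with the most AGAA in its 807-base exon, chr3:20174596-20174745, minus strand: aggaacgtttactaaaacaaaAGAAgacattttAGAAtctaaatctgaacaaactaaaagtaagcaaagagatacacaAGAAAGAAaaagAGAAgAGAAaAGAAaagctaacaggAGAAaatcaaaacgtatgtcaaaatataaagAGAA
The SGO1 exon spans chr3:20174249-20175055. Its first 51 bases can be used alone through an upstream 5′ splice site, and hold no AGAA: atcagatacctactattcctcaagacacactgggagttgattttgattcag

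AGAA (exon strand) occurred 3 times in the NUF2 exon and 2 times in the CENPE exon. Of 14696 cassette exons within 10% of the NUF2 exon's length, 65% held the motif and 16.5% held it at least 3 times. Of 8781 near the CENPE exon's length, 49.5% held it and 19.1% at least 2 times. The SGO1 exon held 14, against a median of 6 in 345 exons of like length, of which 9.57% held as many, and 9 of the 14 lie in the printed stretch. The NGLY1 122-base exon held 1, as 58.9% of 15918 exons of like length did. The reverse complement TTCT occurred 1 time in the SGO1 exon and in none of the other 3. The NGLY1 146-base exon, which is not printed, held AGAA 2 times and TTCT 2 times. Of 13812 exons of like length, 35.7% held AGAA at least 2 times. Except for NGLY1, the exon lengths are multiples of 3, so skipping keeps the reading frame. These matches describe letters in these windows and do not show binding.

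The 3 mitotic genes answered the siRNA in their exons and not in a shared change of level. NUF2 is a subunit of the NDC80 complex, which couples kinetochores to microtubules. Its exon had a PSI (percent spliced in, here the fraction of transcripts that include the exon) of 0.964, 0.957 and 0.964 in control and 0.782, 0.757 and 0.781 in siRNA-treated MDA-MB-231 libraries. In U87MG the values were 0.971, 0.994 and 0.978 in control and 0.8, 0.786 and 0.844 with the siRNA. The groups did not overlap in either line, and the means differed by -0.188 and -0.171. The NUF2 level was 73.4 ± 0.809 CPM (SD, n = 3) in control and 74.6 ± 2.05 with the siRNA in MDA-MB-231, and 45.8 ± 0.783 and 41.7 ± 0.522 in U87MG.

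SGO1 shields centromeric cohesin from removal until anaphase. Inclusion of its 807-base exon was 0.847, 0.890 and 0.846 in control and 0.527, 0.544 and 0.537 with the siRNA in MDA-MB-231. In U87MG it was 0.628, 0.678 and 0.645 in control and 0.340, 0.289 and 0.331 with the siRNA. Every treated library lay below every control, with mean differences of -0.325 and -0.33. Use of the longer of the 2 forms of this exon (an alternative 5′ splice site event that shares reads with the exon's own event) fell from 0.857 ± 0.019 to 0.632 ± 0.037 in MDA-MB-231 and from 0.633 ± 0.016 to 0.350 ± 0.007 in U87MG (n = 3 each). The 51-base form alone was lower by 0.248 and 0.155, again with no overlap. The SGO1 level was 47 ± 1.64 and 54.8 ± 1.82 CPM in MDA-MB-231, with treated libraries above the controls, and 43.8 ± 1.34 and 43.5 ± 1.47 in U87MG.

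CENPE is the kinesin motor that carries chromosomes to the spindle equator. Its 75-base exon, read against the flanking exon nearest downstream, was included at 0.532, 0.592 and 0.571 in control and 0.343, 0.384 and 0.425 with the siRNA in MDA-MB-231. In U87MG the values were 0.345, 0.350 and 0.386 against 0.149, 0.141 and 0.167. The groups were separate in both lines, and the mean in U87MG went from 0.360 to 0.152. With another downstream exon the same exon differed by -0.204 and -0.452. The CENPE level was 215 ± 3.94 and 205 ± 9.17 CPM in MDA-MB-231, and 190 ± 7.46 and 168 ± 9.94 in U87MG. In U87MG the treated libraries of NUF2 and CENPE lay slightly below the controls in level, and in MDA-MB-231 they overlapped.

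NGLY1 combined a lower level with changed exons. Its level was 46.7, 45.1 and 41.9 CPM in control and 25.3, 24.8 and 24.3 with the siRNA in MDA-MB-231, 1.8-fold lower. In U87MG it was 44.5, 43.6 and 42.3 against 20.4, 20.2 and 20.2 CPM, 2.14-fold lower. Inclusion of the 122-base exon was 0.801, 0.803 and 0.945 in control and 0.474, 0.687 and 0.524 with the siRNA in MDA-MB-231, and 0.609, 0.858 and 0.623 against 0.355, 0.355 and 0.423 in U87MG. Retention of the 933-base intron that follows this exon was 0.346 ± 0.058 and 0.229 ± 0.044 in MDA-MB-231, and 0.540 ± 0.070 and 0.242 ± 0.069 in U87MG (n = 3 each). A further 146-base exon (chr3:25736004-25736149), read with that intron retained upstream, was included at 0.833 ± 0.019 and 0.536 ± 0.080 in MDA-MB-231, and at 0.888 ± 0.014 and 0.733 ± 0.036 in U87MG. In these 3 features no treated library reached the range of the controls. The features overlap one another and share reads, so they are not separate evidence.

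The other 6 genes were separate in level in both lines and had no event past the shared-exon rule given below. FOXO3 was at 76 ± 3.27 CPM in control and 52.7 ± 1.81 with the siRNA in MDA-MB-231, and at 54.9 ± 1.11 and 34.6 ± 2.26 in U87MG. RC3H2 was at 200 ± 3.09 and 138 ± 3.53 CPM, and at 146 ± 2.85 and 89.3 ± 8.23. MTM1 was at 20.4 ± 0.108 and 12.5 ± 1.01 CPM, and at 14.5 ± 0.0544 and 10 ± 0.455. Treated libraries of these 3 genes lay below every control in both lines. SLC36A1 went the other way, from 10.4, 12.4 and 11 to 24.8, 25.3 and 27.8 CPM in MDA-MB-231 and from 11.2, 12.2 and 11.9 to 15.7, 16.2 and 15.3 in U87MG. AUH was at 9.19 ± 0.252 and 13.6 ± 0.46 CPM in MDA-MB-231, and at 6.98 ± 0.367 and 10.8 ± 0.523 in U87MG. SRRM1 was at 154 ± 5.01 and 201 ± 2.17 CPM, and at 133 ± 3.01 and 158 ± 3.07. With NGLY1 these make 7 genes whose siRNA and control libraries separated the same way in both lines, 4 lower and 3 higher. Over all genes tested, edgeR called 7.24% in MDA-MB-231 and 4.20% in U87MG by adjusted p. Such calls are another measure than separate groups in both lines, whose share over all genes was not computed. Nothing is read from the count beside these shares, since the siRNA contrast chose the genes. In the same libraries limma called 0 of 62430 splicing events in MDA-MB-231 and 0 of 63880 in U87MG, with 3676 and 3417 at an unadjusted p under 0.05, so the exon differences of the siRNA stand as separate groups of 3 libraries and not as calls.

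Member events were kept as shared where the mean PSI differed by 0.10 or more in the same direction in both lines with separate groups. By this rule 11 events in 10 distinct features qualified, in NGLY1, SGO1, NUF2 and CENPE. The rule was applied to member events only. The share of all events that would pass it was not computed, so nothing is read from the count. The event just inside had a smaller difference of 0.111 (SGO1) and the one just outside of 0.098 (NGLY1, the 146-base exon with another upstream exon); 13 events were separate in both lines but under the limit.

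**Figure D1:**
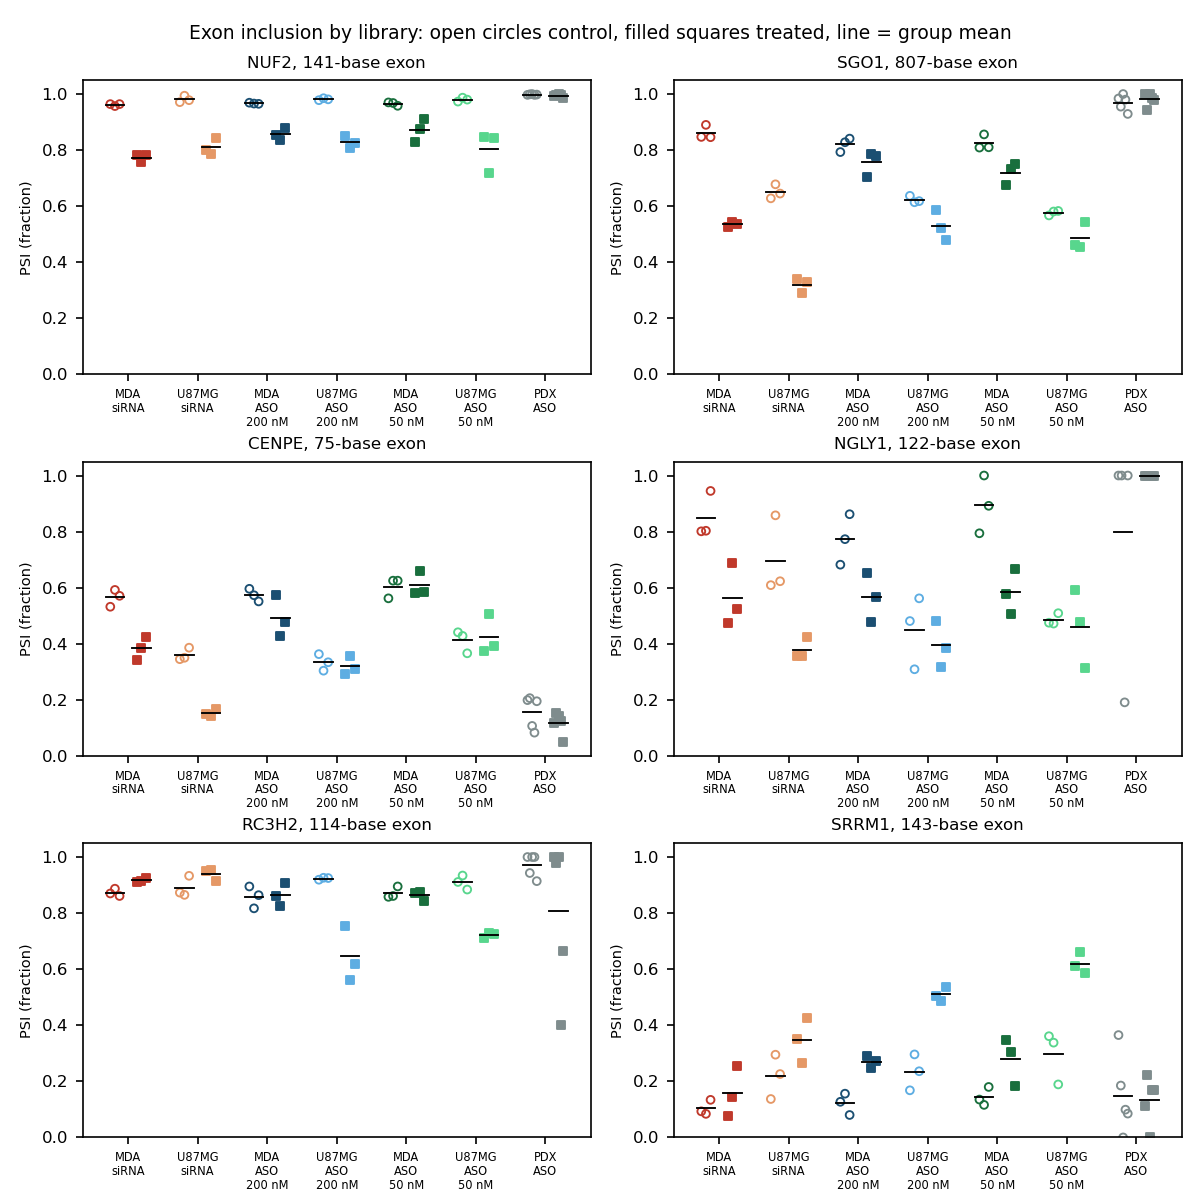
PSI (vertical axis, fraction from 0 to 1) of 1 exon each of NUF2, SGO1, CENPE, NGLY1, RC3H2 and SRRM1 in every library of the 7 comparisons; open circles are control and filled squares treated libraries, and the line is the group mean. The NUF2, SGO1, CENPE and NGLY1 exons are lower with the siRNA in both lines, the RC3H2 exon is lower with the ASO in U87MG, and the SRRM1 exon is higher with the ASO in both lines, by a called difference in U87MG.

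With ASO-1570 the levels of the mitotic genes fell in both lines and at both doses. CENPE at 200 nM was at 167, 170 and 159 CPM in control and 102, 108 and 119 in treated MDA-MB-231 libraries. In U87MG it was at 106, 122 and 114 CPM against 57.8, 43 and 50. No treated library reached a control. These are log2 changes of -0.59 (SE 0.1, edgeR adjusted p = 0.0014) and -1.18 (SE 0.101, adjusted p = 3.09e-06). At 50 nM they were -0.44 (SE 0.107, adjusted p = 0.0122) and -1.29 (SE 0.109, adjusted p = 3.09e-06).

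NUF2 at 200 nM was at 76.8, 76.5 and 77.5 CPM in control and 50.3, 55.3 and 54.9 in treated MDA-MB-231 libraries, and at 30.8, 32.7 and 32.1 against 16.8, 12.2 and 14.3 in U87MG. Its log2 change was -0.52 in MDA-MB-231 (SE 0.095, adjusted p = 0.00211) and -1.14 in U87MG (SE 0.097, adjusted p = 2.83e-06). At 50 nM NUF2 changed by -0.50 (adjusted p = 0.0171) and -1.23 (adjusted p = 1.55e-05). SGO1 at 200 nM was at 43, 42.2 and 41 CPM against 27.8, 32.7 and 31.4 in MDA-MB-231, and at 29.7, 32 and 30.7 against 17.3, 15 and 15.9 in U87MG. The level changed by -0.46 log2 units in MDA-MB-231 (SE 0.075, adjusted p = 0.0012), by -0.94 in U87MG (SE 0.076, adjusted p = 2.18e-06), and at 50 nM by -0.43 and -1 (adjusted p = 0.00126 and 1.11e-06). In each of these 4 comparisons all treated libraries of both genes lay below all controls. In MDA-MB-231 at 50 nM, the calls of NUF2 and CENPE were lost without treated replicate 1 or 2 or control replicate 1 (largest adjusted p = 0.0745 and 0.0569), and that of NUF2 also without control replicate 2. SGO1 and NUF2 have genes on the opposite strand (SGO1-AS1 and RGS5). So do NGLY1 (OXSM and pseudogenes), FOXO3 and SLC36A1 (a pseudogene each). The counting strand is not given in the sources used here, so the counts of all these genes are uncertain to that extent.

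These falls were larger in U87MG. The MDA-MB-231 minus U87MG difference of the log2 effect at 200 nM was 0.62 for NUF2 (SE 0.135, adjusted p = 0.00641), 0.59 for CENPE (SE 0.141, adjusted p = 0.0104) and 0.48 for SGO1 (SE 0.107, adjusted p = 0.00724). At 50 nM it was 0.74, 0.85 and 0.57 (adjusted p = 0.0127, 0.00227 and 0.00213). Over all genes, 23.6% at 200 nM and 28.2% at 50 nM differed between the lines, against 4 and 5 of the 10 here. Among 27 other kinetochore and cohesion genes, 22 were called lower and 0 higher in MDA-MB-231 at 200 nM, and 23 and 0 at 50 nM. U87MG had 23 lower and 2 higher at 200 nM, and 23 and 0 at 50 nM. Of all genes, 13.6% were called lower and 11.7% higher in MDA-MB-231 at 200 nM, and 13.2% and 10.1% at 50 nM. In U87MG these shares were 23.9% and 25.8% at 200 nM, and 26.7% and 27.9% at 50 nM. The list's median log2 change was -0.60, -0.96, -0.42 and -0.78 in the order MDA-MB-231 and U87MG at 200 nM, then at 50 nM, beside 0.00 to 0.02 for all genes. SKA1 and SKA3, subunits of a complex that tracks microtubule ends, fell in MDA-MB-231 at 200 nM by 0.73 and 0.83 on the log2 scale (adjusted p = 0.000147 and 0.000221). The same list had a median of -0.01 and -0.11 with the siRNA.

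The ASO also lowered the NUF2 exon. At 200 nM the U87MG libraries were at 0.978, 0.985 and 0.981 in control and 0.851, 0.809 and 0.825 with ASO-1570. The difference was -0.153 (SE 0.018, limma adjusted p = 0.00374), and at 50 nM -0.177 (SE 0.040, adjusted p = 0.0351). The 50 nM call was lost under 7 of 11 alternatives, among them leaving out treated replicate 1 or any 1 control (largest adjusted p = 0.118). In MDA-MB-231 the exon was at 0.967 ± 0.002 and 0.856 ± 0.022 (n = 3 each) at 200 nM and 0.965 ± 0.006 and 0.871 ± 0.041 at 50 nM. Those groups were also separate, but did not pass (adjusted p = 0.0896 and 0.29). SGO1's 807-base exon was at 0.623 ± 0.012 and 0.529 ± 0.055 in U87MG at 200 nM and at 0.821 ± 0.025 and 0.757 ± 0.045 in MDA-MB-231 (adjusted p = 0.096 and 0.487). CENPE's 75-base exon was at 0.334 ± 0.030 and 0.319 ± 0.032 in U87MG and at 0.573 ± 0.023 and 0.493 ± 0.074 in MDA-MB-231 (adjusted p = 0.692 and 0.432). At 50 nM the SGO1 exon was at 0.577 ± 0.009 and 0.487 ± 0.049 in U87MG and at 0.825 ± 0.027 and 0.72 ± 0.039 in MDA-MB-231 (adjusted p = 0.118 and 0.378). In all 4 comparisons the treated libraries of the SGO1 exon lay below the controls without passing, and those of the CENPE exon overlapped them. Whether siRNA and ASO effects differ was not tested, because they come from separate experiments.

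CENPE had lower inclusion of other exons with the ASO. The one with the smallest p is printed, with its 4 AGAA in capitals. At least 4 were held by 8.9% of 12495 exons of like length.
CENPE 159-base exon, chr4:103141750-103141908, minus strand: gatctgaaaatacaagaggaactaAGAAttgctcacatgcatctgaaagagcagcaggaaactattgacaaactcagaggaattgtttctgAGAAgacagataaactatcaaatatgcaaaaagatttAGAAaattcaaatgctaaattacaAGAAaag
Its PSI was 1.000, 0.997 and 1.000 in control and 0.919, 0.874 and 0.875 in treated U87MG libraries at 200 nM (difference -0.11, SE 0.017, limma adjusted p = 0.00791). At 50 nM it was 0.992 ± 0.005 and 0.903 ± 0.009, a difference of -0.089 that had an adjusted p of 0.0134 but stayed under the size of 0.10 asked of a call. In MDA-MB-231 at 200 nM it was 0.996 ± 0.003 and 0.928 ± 0.014 (adjusted p = 0.119), and with the siRNA 0.992 ± 0.006 and 0.971 ± 0.008 in U87MG. In all, 6 CENPE events in 5 exons passed in U87MG at 200 nM, with differences from -0.133 to -0.106, and 0 at 50 nM. Each of the 5 exons is a multiple of 3 bases long. The 204-base exon at chr4:103153047-103153250 is the least firm of them, called under 4 of 11 alternatives. AGAA occurred 4 times in the other 159-base exon, 3 times each in the 186-base and 219-base exons and 2 times in the 204-base exon. At least as many were held by 8.9%, 23.1%, 28.8% and 46.2% of exons of like length, in that order. TTCT occurred 1 time each in the printed exon and the 204-base exon.

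The levels of NGLY1 and FOXO3, lower with the siRNA in both lines, passed no test for a fall with the ASO. NGLY1 at 200 nM was at 42.8, 43.2 and 43.6 CPM in control and 45.6, 47.3 and 42.5 in treated MDA-MB-231 libraries, and at 46.7, 50.2 and 49.4 against 51.5, 51.6 and 52.9 in U87MG. The log2 change was 0.06 in MDA-MB-231 (SE 0.059, adjusted p = 0.483), 0.09 in U87MG (SE 0.059, adjusted p = 0.218), and at 50 nM -0.05 and 0.07 (SE 0.051 each, adjusted p = 0.583 and 0.253). FOXO3 at 200 nM was at 56.9 ± 3.64 and 54.7 ± 6.85 CPM in MDA-MB-231 and at 40.5 ± 0.624 and 43.8 ± 0.636 in U87MG (adjusted p = 0.683 and 0.302). At 50 nM FOXO3 rose in U87MG by 0.13 on the log2 scale (SE 0.045, adjusted p = 0.0296). This call was lost under 8 of 11 alternatives, among them without treated replicate 2 or 3 or control replicate 2 or 3. FOXO3 was 0.10 higher in MDA-MB-231 (adjusted p = 0.122).

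Exons of NGLY1 changed with the ASO in U87MG at 200 nM, and of its events tested at 50 nM 0 passed. Use of a 92-base exon (chr3:25736309-25736400), which lies between the 122-base and the 146-base exon and was read here from the exon upstream of the 122-base one, was at 0.633, 0.529 and 0.666 in control and 0.315, 0.224 and 0.320 in treated U87MG libraries at 200 nM. The difference was -0.323 (SE 0.047, adjusted p = 0.00645), and this call held under all 11 alternatives. The same event was at 0.668 ± 0.173 and 0.457 ± 0.025 with the siRNA in U87MG, where the groups were separate too. It had no values in MDA-MB-231 with the siRNA. At 50 nM it was not listed, so it was not tested at that dose. The longer form of the 122-base exon, which adds 1025 bases through the intron and the 92-base exon, was at 0.711, 0.871 and 0.922 against 0.321, 0.477 and 0.432 (difference -0.425, SE 0.070, adjusted p = 0.00953). At 50 nM this form differed by -0.221 with overlapping groups (adjusted p = 0.124). Read from the 122-base exon instead, the 92-base exon differed by -0.225 at 200 nM (adjusted p = 0.0305, called under 6 of 11 alternatives) and by -0.104 at 50 nM (adjusted p = 0.316), and with the siRNA the MDA-MB-231 difference was 0.043 and that of U87MG -0.004. The 92-base event was at 0.879 ± 0.074 and 0.788 ± 0.054 in MDA-MB-231 (adjusted p = 0.462). In MDA-MB-231 at 200 nM the 122-base exon of the siRNA result had the separate groups 0.682, 0.773 and 0.862 against 0.653, 0.478 and 0.566 (adjusted p = 0.216), and in U87MG its groups overlapped. Retention of the 933-base intron lay below the controls in every treated library of the 4 comparisons, as at 0.159 ± 0.005 and 0.087 ± 0.003 in MDA-MB-231 and 0.205 ± 0.05 and 0.137 ± 0.029 in U87MG at 200 nM, and passed in none (adjusted p from 0.0615 to 0.445). The rest of a list on glycoprotein clearance and NFE2L1, a transcription factor that NGLY1 activates by deglycosylation, had 15 genes. At 200 nM 2 of them were called higher and 4 lower in MDA-MB-231, and 5 higher and 4 lower in U87MG, where 25.2% and 49.7% of all genes were called in either direction. NFE2L1 was at 332 and 162 CPM in MDA-MB-231 and at 563 and 211 in U87MG (log2 change -1.03 and -1.42, adjusted p = 1.24e-05 and 3.14e-07).

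RC3H2 and MTM1 fell with both agents. RC3H2 at 50 nM was at 134, 132 and 133 CPM in control and 99.9, 95.8 and 98.2 in treated U87MG libraries, and at 159, 146 and 155 against 134, 135 and 134 in MDA-MB-231. Log2 changes of -0.44 (SE 0.038, adjusted p = 3.12e-06) and -0.19 (SE 0.038, adjusted p = 0.00348) resulted, with a difference between the lines of 0.25 (SE 0.053, adjusted p = 0.00548). At 200 nM they were -0.45 and -0.54 (SE 0.14 each, adjusted p = 0.0184 and 0.0144). In MDA-MB-231 at 200 nM treated replicate 2 stood apart, at 44.4 CPM beside 68.7 and 69.9 in the other treated libraries and 81.6 to 96.7 in control. The RC3H2 change there ranged from -0.65 to -0.36 over the alternatives. The 200 nM calls were lost without treated replicate 3 or control replicate 2 in U87MG, and in MDA-MB-231 without control replicate 2 or with only the 2 groups compared in the fit (largest adjusted p over the alternatives 0.0658 and 0.0635). MTM1 at 200 nM was at 15.4, 16.8 and 15.1 CPM against 13.4, 9.92 and 13 in MDA-MB-231 and at 11, 11.9 and 11.8 against 8.61, 7.57 and 8.99 in U87MG. MTM1 changed by -0.38 in MDA-MB-231 (SE 0.114, adjusted p = 0.03) and by -0.46 in U87MG (SE 0.115, adjusted p = 0.00506), then by -0.22 (adjusted p = 0.0464) and -0.39 (adjusted p = 0.000728) at 50 nM. The 2 MDA-MB-231 calls of MTM1 were lost under 7 and 8 of 11 alternatives: at 200 nM without treated replicate 2 or any 1 control, at 50 nM without any 1 of the 6 libraries.

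RC3H2 also had a coding exon of 114 bases with lower inclusion in U87MG with the ASO, printed here as the one exon of this gene that passed.
RC3H2 exon, chr9:122851323-122851436, minus strand: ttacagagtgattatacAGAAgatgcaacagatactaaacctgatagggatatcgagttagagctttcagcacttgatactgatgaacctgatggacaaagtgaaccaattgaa
It holds 1 AGAA, as 56.9% of 15104 exons of like length do. In U87MG at 50 nM its PSI was 0.911, 0.934 and 0.884 in control and 0.71, 0.73 and 0.724 with ASO-1570. The difference was -0.188 (SE 0.029, adjusted p = 0.0121), and at 200 nM -0.278 (SE 0.053, adjusted p = 0.0153). In MDA-MB-231 at 200 nM it was at 0.859 ± 0.039 and 0.865 ± 0.041 (adjusted p = 0.937). With the siRNA it was at 0.873 ± 0.013 and 0.917 ± 0.008 in MDA-MB-231, treated libraries above, and at 0.89 ± 0.037 and 0.938 ± 0.021 in U87MG, overlapping. The U87MG calls were lost without any 1 control at 200 nM and without control replicate 1 or 2 at 50 nM, where a limit of 0.20 on the difference also ended it (largest adjusted p = 0.0574 and 0.0688). A difference between the lines was not tested for PSI.

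SLC36A1 went opposite ways with the 2 agents in both lines and at both ASO doses. At 200 nM it was at 25.4, 27.1 and 25 CPM in control and 13.3, 9.53 and 15.9 in treated MDA-MB-231 libraries. In U87MG it was at 13.8, 14.6 and 14.6 against 9.32, 10.1 and 9.88. Its log2 change was -1 in MDA-MB-231 (SE 0.141, adjusted p = 0.000451), then -0.55 in U87MG (SE 0.141, adjusted p = 0.00585), and at 50 nM -0.7 (SE 0.074, adjusted p = 8.96e-05) and -0.55 (SE 0.074, adjusted p = 7.61e-05). The control libraries themselves differed between experiments in MDA-MB-231, at 11.3 ± 1.03 CPM with the control siRNA and 25.9 ± 1.12 and 24.5 ± 0.338 with the control oligonucleotide, in tables normalized separately. Of 17 other genes of lysosomal amino acid sensing, 5 were called higher and 2 lower in MDA-MB-231 and 6 higher and 5 lower in U87MG at 200 nM, beside the 25.2% and 49.7% of all genes. LAMTOR3, part of the scaffold that docks mTORC1 on lysosomes, rose by 0.45 and 0.54 log2 units (adjusted p = 0.000487 and 2.69e-05). FLCN, a GTPase activator in the same pathway, rose by 0.54 and 1.33 (adjusted p = 0.000948 and 6.05e-07).

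AUH rose with the ASO in MDA-MB-231 and not in U87MG. At 200 nM it was at 7.91, 7.76 and 8.87 CPM in control and 12.1, 12.6 and 13.1 in treated MDA-MB-231 libraries, a change of 0.62 (SE 0.094, adjusted p = 0.000681). In U87MG it was at 7.62, 6.78 and 6.74 against 7.3, 6.38 and 6.65 (-0.06, SE 0.094, adjusted p = 0.658). The difference between the lines was 0.68 (SE 0.132, adjusted p = 0.00356), and 0.46 at 50 nM (SE 0.137, adjusted p = 0.0271). The 50 nM difference was lost in 8 of 16 alternatives, each leaving out 1 library: in MDA-MB-231 treated replicate 2 or 3 or control replicate 1 or 2, in U87MG treated replicate 1 or any 1 control. Of 12 other genes of leucine breakdown, 3 were called higher and 5 lower in MDA-MB-231 and 1 higher and 10 lower in U87MG at 200 nM, beside the same 2 shares of all genes. MCCC1 and BCAT1, enzymes of that pathway, fell in U87MG by 0.74 and 0.63 log2 units (adjusted p = 9.25e-06 and 0.00138).

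**Figure D2:**
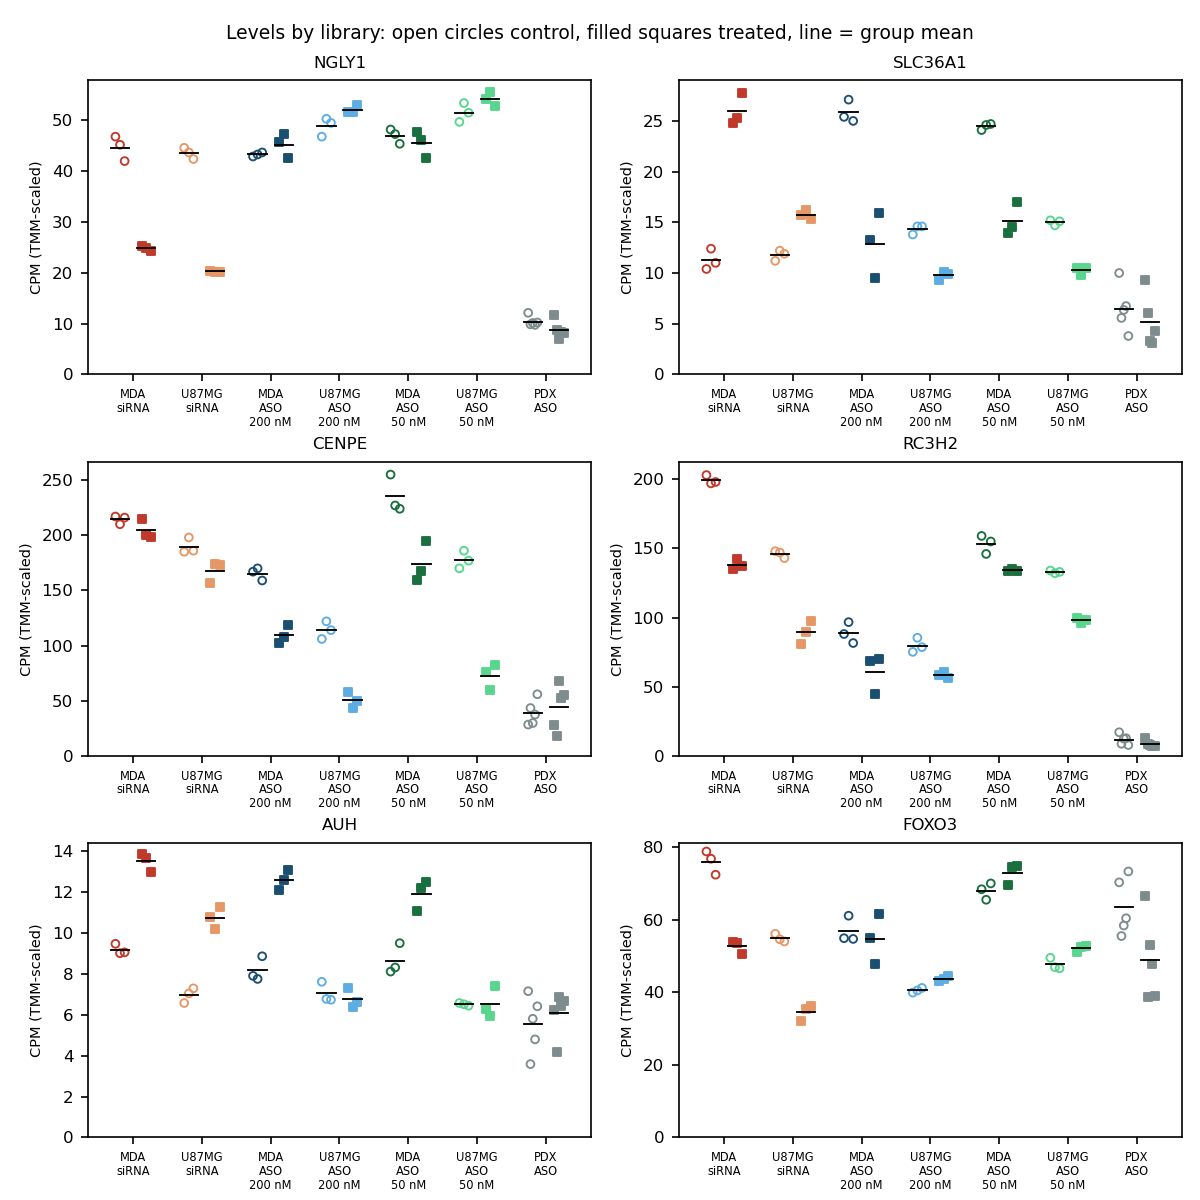
Levels in CPM on TMM-scaled library sizes (vertical axis, from 0) of NGLY1, SLC36A1, CENPE, RC3H2, AUH and FOXO3 in every library; open circles are control and filled squares treated libraries, and the line is the group mean. SLC36A1 is higher with the siRNA and lower with the ASO in both lines, NGLY1 is lower with the siRNA only, and AUH is higher with the ASO in MDA-MB-231 only.

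SRRM1 rose with the siRNA and not with the ASO, but its exons changed with the ASO. At 200 nM its level was 169 ± 2.43 and 162 ± 12.2 CPM in MDA-MB-231 and 122 ± 5 and 115 ± 7.9 in U87MG (adjusted p = 0.586 and 0.362). At 50 nM it fell in U87MG, from 119, 122 and 124 to 100, 107 and 99 CPM (-0.25, SE 0.042, adjusted p = 0.000387). A 143-base exon (chr1:24648024-24648166), which GENCODE v29 has only in 1 transcript annotated for nonsense-mediated decay, a pathway that removes mRNAs with early stop codons, was included more. In U87MG at 50 nM it was at 0.361, 0.338 and 0.189 in control and 0.610, 0.662 and 0.585 with ASO-1570. The difference was 0.323 (SE 0.052, adjusted p = 0.0144), and 0.277 at 200 nM (SE 0.037, adjusted p = 0.00501), calls that held under all 11 alternatives each. In MDA-MB-231 the exon was at 0.121 ± 0.038 and 0.270 ± 0.022 at 200 nM (adjusted p = 0.065) and 0.144 ± 0.033 and 0.279 ± 0.086 at 50 nM (adjusted p = 0.35). With the siRNA it was at 0.219 ± 0.079 and 0.348 ± 0.081 in U87MG, with overlapping groups. A 42-base coding exon (chr1:24663183-24663224) was at 0.442, 0.491 and 0.496 in control and 0.322, 0.314 and 0.327 in treated U87MG libraries at 200 nM (-0.155, SE 0.022, adjusted p = 0.00588). At 50 nM it differed by -0.116 in U87MG without passing (adjusted p = 0.125), and in MDA-MB-231 the groups overlapped at both doses (adjusted p = 0.594 and 0.755). Of 15 other genes of SR-related coactivators and the exon junction complex, 3 were called higher and 3 lower in MDA-MB-231 and 7 higher and 4 lower in U87MG at 200 nM, beside 25.2% and 49.7% of all genes. CASC3, a core protein of that complex, fell by 0.44 and 0.41 log2 units in these 2 comparisons (adjusted p = 0.00468 and 0.0028). THRAP3, a related splicing coactivator, fell by 0.30 and 0.48 (adjusted p = 0.00189 and 1.75e-05).

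The lists around MTM1, FOXO3 and RC3H2 held calls in both directions, at 200 nM beside the 25.2% and 49.7% of all genes named above. In U87MG at 200 nM, 4 of 19 genes of PI3P metabolism rose and 8 fell; PIKFYVE, the kinase that turns PI3P into PI(3,5)P2, rose by 1.55 (adjusted p = 2.78e-05), and MTMR9, a myotubularin-related protein, by 0.51 (adjusted p = 0.000277). In MDA-MB-231 2 of the 19 were higher and 2 lower. Of 14 FOXO factors and targets, 4 were higher and 3 lower in U87MG at 200 nM, against 3 and 3 in MDA-MB-231. CITED2, a transcriptional coregulator, rose by 0.91 in MDA-MB-231 and by 0.72 in U87MG (adjusted p = 7.75e-06 and 4.23e-06), and BNIP3, a mitophagy receptor, fell by 0.74 and 1.23 (adjusted p = 0.00259 and 1.9e-05). Of 14 genes around Roquin and the CCR4-NOT deadenylase, 4 were higher and 3 lower in U87MG, against 3 and 3 in MDA-MB-231; EDC4, a decapping scaffold, fell by 0.39 and 0.57 (adjusted p = 0.00206 in MDA-MB-231 and 3.35e-05 in U87MG). CNOT1, the scaffold of the deadenylase, changed by -0.50 in MDA-MB-231 (adjusted p = 0.025) and -0.34 in U87MG (adjusted p = 0.0676). In MDA-MB-231 its treated libraries were uneven, at 228, 139 and 224 CPM.

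Counted over the 10 genes, MDA-MB-231 at 200 nM had 1 called higher and 6 lower, where 11.7% of all genes rose and 13.6% fell. At 50 nM the same counts stood beside 10.1% and 13.2%. In U87MG 0 rose and 6 fell at 200 nM, with 25.8% and 23.9% of all genes, and 1 rose and 7 fell at 50 nM, with 27.9% and 26.7%. In either direction 49.7% and 54.6% of all genes were called in U87MG, beside 6 and 8 of these 10. The MDA-MB-231 count of 7 at 50 nM went to 4 without treated replicate 1, treated replicate 2 or control replicate 1. The median log2 change of the 10 genes was -0.42, -0.46, -0.21 and -0.42 in the order of the kinetochore list above. Of their splicing events, 0 of 83 tested passed in MDA-MB-231 and 14 of 109 in U87MG at 200 nM, beside 1.42% and 19.6% of all events. At 50 nM 0 of 58 and 3 of 79 passed, beside 0.199% and 13.8%. The U87MG count of 3 at 50 nM went to 9 without treated replicate 3 and to 1 without control replicate 1 or 2.

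**Figure D3:**
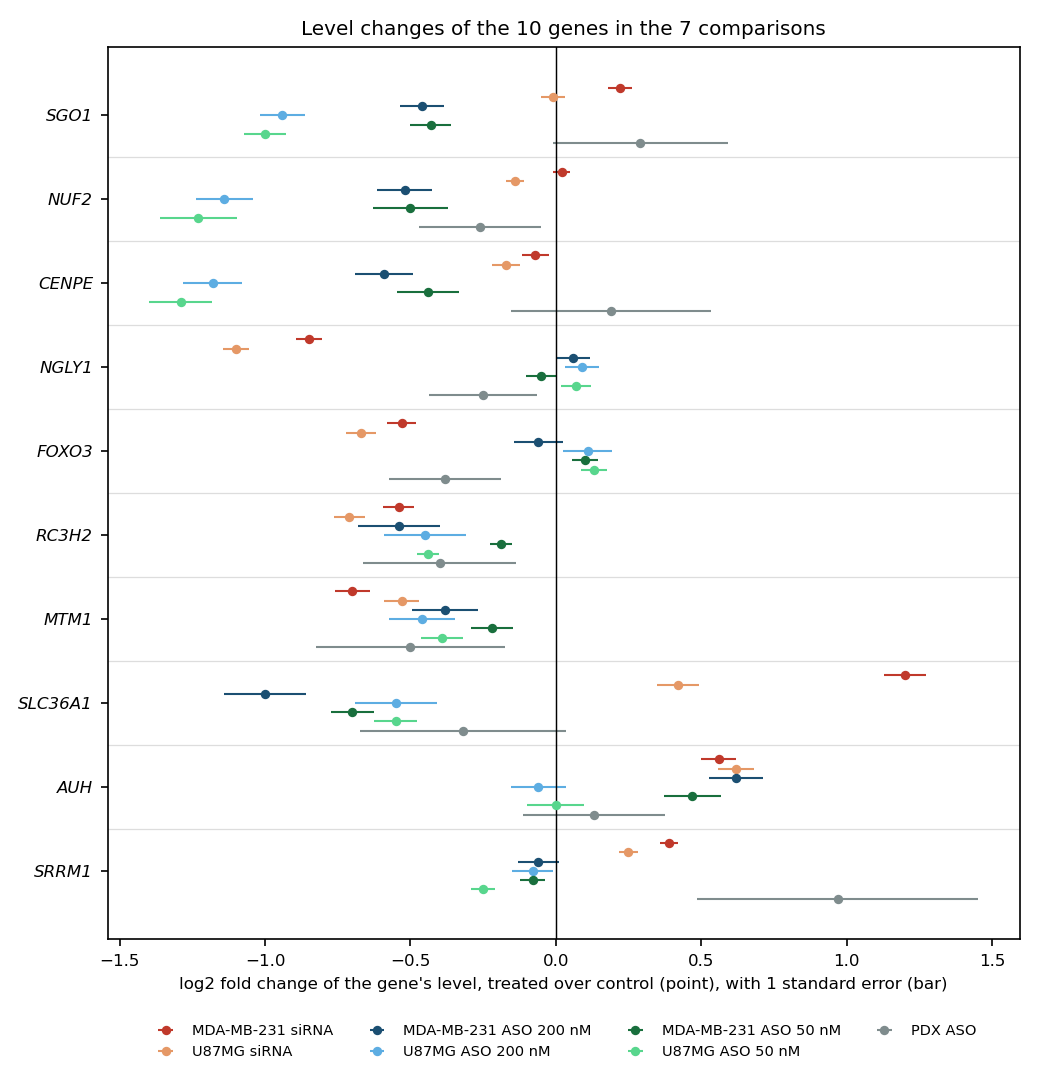
Log2 fold change of the level (horizontal axis) of each of the 10 genes (rows) in the 7 comparisons, treated over control; points are edgeR estimates and bars 1 standard error. With the siRNA, SGO1, NUF2 and CENPE lie between -0.17 (CENPE, U87MG) and 0.22 (SGO1, MDA-MB-231), and with the ASO left of 0 in the lines. SLC36A1 lies on opposite sides with the 2 agents in the lines, and the PDX estimates have the longest bars.

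In the PDX none of the 10 genes passed (0 of 10, and 0% of 23812 genes by edgeR; DESeq2 called 0 and 2053 genes had an unadjusted p under 0.05), and 0 of 58 member events passed (0% of all events). TRA2B itself was at 105 ± 22.6 CPM in control and 94.5 ± 15.4 in treated tumors (n = 5 each, log2 change -0.16, SE 0.202, adjusted p = 0.707). CENPE ranged from 28.4 over a median of 37.5 to 55.9 CPM in control and from 17.9 over 52.8 to 68.3 in treated tumors, with overlapping groups (0.19, SE 0.345, adjusted p = 0.8). NGLY1 was at 10.4 ± 0.967 and 8.7 ± 1.75 CPM (-0.25, SE 0.187, adjusted p = 0.535). SRRM1 was at 61.9, 133, 70.4, 68.7 and 180 CPM in control and 75.6, 70.5, 309, 276 and 279 in treated tumors, the 3 highest being treated libraries with 64.16, 75.31 and 64.32% mitochondrial counts. Its log2 change was 0.97 (SE 0.483, adjusted p = 0.487) with all libraries and -0.20 without the 4 libraries above 50% mitochondrial counts, an alternative chosen after seeing the data. Without those libraries 4 other genes also turned in sign, CENPE to -0.60, SGO1 to -0.37, AUH to -0.04 and SLC36A1 to 0.09, and none of the 10 genes passed. With the mitochondrial genes left out instead, SRRM1 was at 0.95. The NUF2 exon was at 0.998 ± 0.001 and 0.994 ± 0.005, and the SGO1 exon at 0.970 ± 0.028 and 0.981 ± 0.023.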

How the data were processed

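The authors deposited gene tables of counts (whole numbers, with Ensembl identifiers as rows) and splicing tables of PSI, a fraction between 0 and 1. The splicing tables carry the name rMATS. Per the submitters' processing notes the authors used FastQC, MultiQC, Trimmomatic, STAR and StringTie on GRCh38 (hg38); versions, roles, the annotation release and the counting strand are not given in the sources used here. Per the labels' protocols, the mRNA kit keeps the strand and reads are paired, 151 bases each. No read counts stand behind PSI, so the depth of an event is unknown.

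Gene levels were tested with edgeR 4.0.16 (quasi-likelihood, TMM, filter on low counts, all groups of a table in 1 fit, no block), and CPM are on TMM-scaled library sizes. PSI was tested with limma 3.58.1 on the 2 groups compared, over events without missing values whose PSI spanned 0.05 or more; a call needed a Benjamini-Hochberg adjusted p under 0.05 and a difference of at least 0.10. P-values were adjusted over all features of a comparison, and the 5 ASO comparisons and 2 differences between lines are the tests made. Alternatives included DESeq2 1.42.0. Symbols were matched for 60295 of 60668 identifiers. The genes and lists were chosen with earlier results of these data known. From each pathway list the rule names up to 2 genes with the smallest largest adjusted p over the 4 cell line ASO comparisons. One gene that the rule names is not reported here. Named events are the shared siRNA events and those called with the ASO. Both fits were checked on simulated data with known answers. Exon coordinates were matched to GENCODE v29; the motif was searched as AGAA and its reverse complement TTCT over 91542 cassette exons.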

Additional observations from a re-analysis of the deposited data

Results flagged for a closer look

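The effect of ASO-1570 differed between the lines by the interaction test in edgeR for 4 genes at 200 nM, with MDA-MB-231 minus U87MG differences of 0.48 (SGO1), 0.62 (NUF2), 0.59 (CENPE) and 0.68 (AUH) on the log2 scale. At 50 nM it differed for 5 genes, by 0.57 (SGO1), 0.74 (NUF2), 0.85 (CENPE), 0.25 (RC3H2) and 0.46 (AUH).

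In the PDX, single libraries were flagged where their gap to the nearest library was large beside the range of their group (Dixon's test). For values with a normal spread, chance alone passes this limit in about 1 of 20 groups. That rate does not hold for PSI where libraries tie at or near 1, since a small step from 1 is then flagged. The number of groups screened is not given here. For levels these were NGLY1 in control (12.1 CPM), and RC3H2 (13.3), MTM1 (7.39) and AUH (4.16 CPM) in treated tumors. For PSI they were the NGLY1 92-base exon (0.553) and its 5′ splice site event (0.837) in control, the SGO1 5′ splice site event in treated tumors (0.980), the CENPE 159-base exon at chr4:103141750-103141908 in control (0.986) and treated tumors (0.991), and the CENPE 159-base exon at chr4:103143248-103143406 in control (0.978). The RC3H2, MTM1 and NGLY1 levels belong to replicate 1 of their group, which had 22.76% (treated) and 17.65% (control) mitochondrial counts, the lowest of each group.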

How the results depend on the processing

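Over 2792 values of named genes and events recomputed under alternatives, 96 fell short of the threshold and 29 passed it where the main value did not; in 68 the sign differed between 2 values that both missed it, and no called value changed sign. Called member genes numbered 5 to 7 in MDA-MB-231 at 200 nM, 5 to 6 in U87MG at 200 nM and 7 to 8 in U87MG at 50 nM when 1 library was left out, and 4 to 6 in MDA-MB-231 at 50 nM. Differences between the lines numbered 4 to 5 at 200 nM and 4 to 7 at 50 nM. Called member events in U87MG numbered 10 to 16 at 200 nM and 1 to 9 at 50 nM when 1 library was left out. In MDA-MB-231 the logit of PSI gave 1 event at 200 nM and a fit of all 4 groups gave 2, and 1 at 50 nM; in U87MG at 50 nM the same fit gave 6. A difference of at least 0.20 left 6 events at 200 nM and 1 at 50 nM in U87MG. With the replicate number as a block, U87MG at 50 nM kept a count of 1 event, and the line difference of CENPE at 200 nM had an adjusted p of 0.0505, which misses the threshold. The block also ended the calls of RC3H2 (U87MG, 200 nM), MTM1 (MDA-MB-231, both doses) and FOXO3 (U87MG, 50 nM) in level, and in U87MG those of the RC3H2 exon at both doses, the NUF2 exon at 50 nM and 3 CENPE events at 200 nM. Correlations of same-numbered deviations ranged from -0.62 in MDA-MB-231 at 200 nM to 0.84 in the PDX. In U87MG all were positive, from 0.06 to 0.36, so a pairing by replicate number is neither shown nor excluded there. In the PDX, where 2 alternatives (libraries above 50% mitochondrial counts left out, mitochondrial genes left out) were chosen after seeing the data, the count was 0 under all. The causes of these shifts were not tested. The 50 nM and siRNA libraries hold fewer counts than those at 200 nM, and the read depth behind PSI is unknown.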
